A study of Mus musculus with 12 samples.

Results

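The *Id1*, *Id2* and *Id3* genes of the ID proteins and the *Tcf3*, *Tcf12* and *Tcf4* genes of the E proteins were followed in RNA-Seq libraries of mouse CD4 T blast cells. These 6 genes were taken by their names from the 24439 gene names of the deposited tables, and all 6 were among the 12442 genes tested, which passed 1 TPM (a length-normalised share of the transcripts, out of 1000000) in at least 1 of the 12 libraries. CD4 T cells from spleens of C57BL/6 C42 mice, a line that carries a piece of the human *IL3/CSF2* locus, were grown with 2 µg/ml concanavalin A for 40 h and then in 50 U/ml IL-2. IL-2 was then either kept (TB IL-2) or left out (TB IL-2nil) for another 16 h. After these 16 h, some cells of both kinds were briefly stimulated with PMA and calcium ionophore (PMA/I), giving TB+ IL-2 and TB+ IL-2nil. There were 3 libraries in each of these 4 groups, and the comparisons ask how IL-2 changes expression before and after PMA/I. All groups share the strain, the tissue and the concanavalin A step, and no library of naive cells was analysed here. Nothing in the labels says that libraries came from separate mice or cultures, so the P-values measure the spread between these libraries, which may be technical.

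Levels are given as TPM after scaling each library to a common upper quartile, and differences are in log2(TPM + 1), fitted with limma over all genes and adjusted by the Benjamini-Hochberg method. A gene was called at an adjusted P under 0.05. The library labelled TB IL-2nil replicate 3 and the library labelled TB+ IL-2 replicate 3 were placed in each other's group, because the study's own list of differentially expressed genes holds their values that way round, a placement that was known from earlier work on these data. *Il2*, which activated T cells transcribe, read 1368 FPKM (the deposited unit) in the library labelled TB IL-2nil replicate 3 and 0.290 FPKM in that labelled TB+ IL-2 replicate 3. Elsewhere it ranged from 1095 to 2374 FPKM in TB+ cells and from 0 to 1.18 FPKM in TB cells. Groups, ranges and means below are as placed. Where the labels as deposited change a call of the 6 genes, or whether their groups overlap, this is said beside the value. T cell identity was checked with *Cd3d*, *Cd3e*, *Cd3g*, *Cd4*, *Cd2* and *Lck*, which summed to 1316 to 3339 TPM over the 12 libraries. Sums over such marker lists are of TPM before scaling.

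E proteins are basic helix-loop-helix transcription factors that bind E-box sequences as dimers and control gene programmes at many steps of lymphocyte development. ID proteins have the helix-loop-helix but lack the basic region that touches DNA, so that they capture E proteins in dimers that do not bind. In T cells, E proteins restrain the passage of checkpoints and keep naive and memory programmes, while ID2 and ID3 relieve this restraint and have separate roles in effector and memory differentiation. Only mRNA was measured here, and the balance of the proteins was not analysed here.

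Coordinates of the genes are those of mm9, the build named in the submitters' processing notes, from GENCODE M1 models. *Id1* lies at chr2:152561987-152563146 on the plus strand, *Id2* at chr12:25778666-25780957 on the minus strand and *Id3* at chr4:135699412-135701670 on the plus strand. *Tcf3* lies at chr10:79872259-79896392 and *Tcf12* at chr9:71692059-71959626, both on the minus strand. The ID genes span 1160 to 2292 bp, while *Tcf3* spans 24134 bp and *Tcf12* 267568 bp. Promoter sequences were found in RefSeq (GRCm38.p6) for 4 of the 6 genes. The 250 bases before the start are shown for *Id3* and *Tcf3*, the members that changed most, and for *Id2*, the most abundant member. They are written 5′ to 3′ on the strand of the gene, at chr4:136143572-136143821 for *Id3*, chr10:80433636-80433885 for *Tcf3* and chr12:25096093-25096342 for *Id2*. Capitals mark E-boxes (CANNTG) and GC boxes (GGGCGG, the site class of SP/KLF factors) found on either strand.
Id3: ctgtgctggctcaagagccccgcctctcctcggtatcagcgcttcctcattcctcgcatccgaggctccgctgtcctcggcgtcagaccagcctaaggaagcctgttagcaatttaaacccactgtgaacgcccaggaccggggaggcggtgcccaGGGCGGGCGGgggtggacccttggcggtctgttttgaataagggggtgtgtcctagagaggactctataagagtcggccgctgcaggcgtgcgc
Tcf3: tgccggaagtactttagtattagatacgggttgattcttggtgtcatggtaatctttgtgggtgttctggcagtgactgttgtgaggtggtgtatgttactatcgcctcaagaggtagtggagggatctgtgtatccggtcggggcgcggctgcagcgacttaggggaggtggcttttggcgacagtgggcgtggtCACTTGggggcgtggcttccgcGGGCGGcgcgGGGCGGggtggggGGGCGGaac
Id2: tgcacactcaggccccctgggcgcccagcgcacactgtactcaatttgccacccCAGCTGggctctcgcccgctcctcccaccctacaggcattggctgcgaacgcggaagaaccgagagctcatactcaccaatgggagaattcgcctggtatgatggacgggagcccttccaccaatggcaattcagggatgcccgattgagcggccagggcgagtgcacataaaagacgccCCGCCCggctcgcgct

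Among these 250 bases, *Id3* held 2 overlapping GC boxes and 0 E-boxes, *Tcf3* held 3 GC boxes and 1 E-box, and *Id2* held 1 of each. The E-box of *Id2* is of the form CAGCTG. Over the 32851 promoter windows of the same length in the table, 66.2% held an E-box, 13.0% the form CAGCTG and 32.7% a GC box. The EGR motifs GCGGGGGCG and GCGTGGGCG, the STAT5 motif TTCNNNGAA and the AP-1 motif TGANTCA, searched on both strands, were not in any of the 3 windows. They were in 2.6%, 0.5%, 7.0% and 6.7% of all windows. The short CRE motif TGACG, found in 17.8% of all windows, was in the window of *Id3* and not in the others, and the full CRE TGACGTCA, which contains it, was in none of the 3. The SMAD motif GGCGCC, found in 9.6% of windows, was in that of *Id2* and not in the others, and GTCTAGAC, in 0.2%, was in none of the 3. These are matches of letters and carry no reading of binding.

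The levels of the 6 genes fell into 2 ranges. *Id2* had the highest mean over the 12 libraries, 98.9 TPM, above 90.3% of the genes tested, followed by *Tcf12* at 41.9 TPM, *Tcf3* at 34.6 TPM and *Id3* at 19.9 TPM. *Tcf4* at 1.14 TPM and *Id1* at 1.09 TPM were near the lower limit of the filter. Across the 12 libraries the highest level was 30.9 times the lowest for *Id3* and 7.03 times for *Tcf3*, but 3.19 times for *Id2* and 2.57 times for *Tcf12*. In TB IL-2 and in both TB+ groups *Id2* was above every other member in each group without overlap. In TB IL-2nil its range overlapped that of *Tcf12* and, narrowly, that of *Id3*, and the ranges of *Tcf12*, *Tcf3* and *Id3* overlapped too. After PMA/I the ranges of *Id3* and *Id1* overlapped in TB+ IL-2, those of *Id1* and *Tcf4* overlapped in TB+ IL-2nil, and *Tcf3* overlapped *Tcf12* in TB+ IL-2 but not in TB+ IL-2nil. As labelled, *Id2* at 52.2 to 127 TPM in TB+ IL-2 overlapped *Tcf12* at 30.0 to 77.1 TPM and *Tcf3* at 19.9 to 56.3 TPM.

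**Figure D1:**
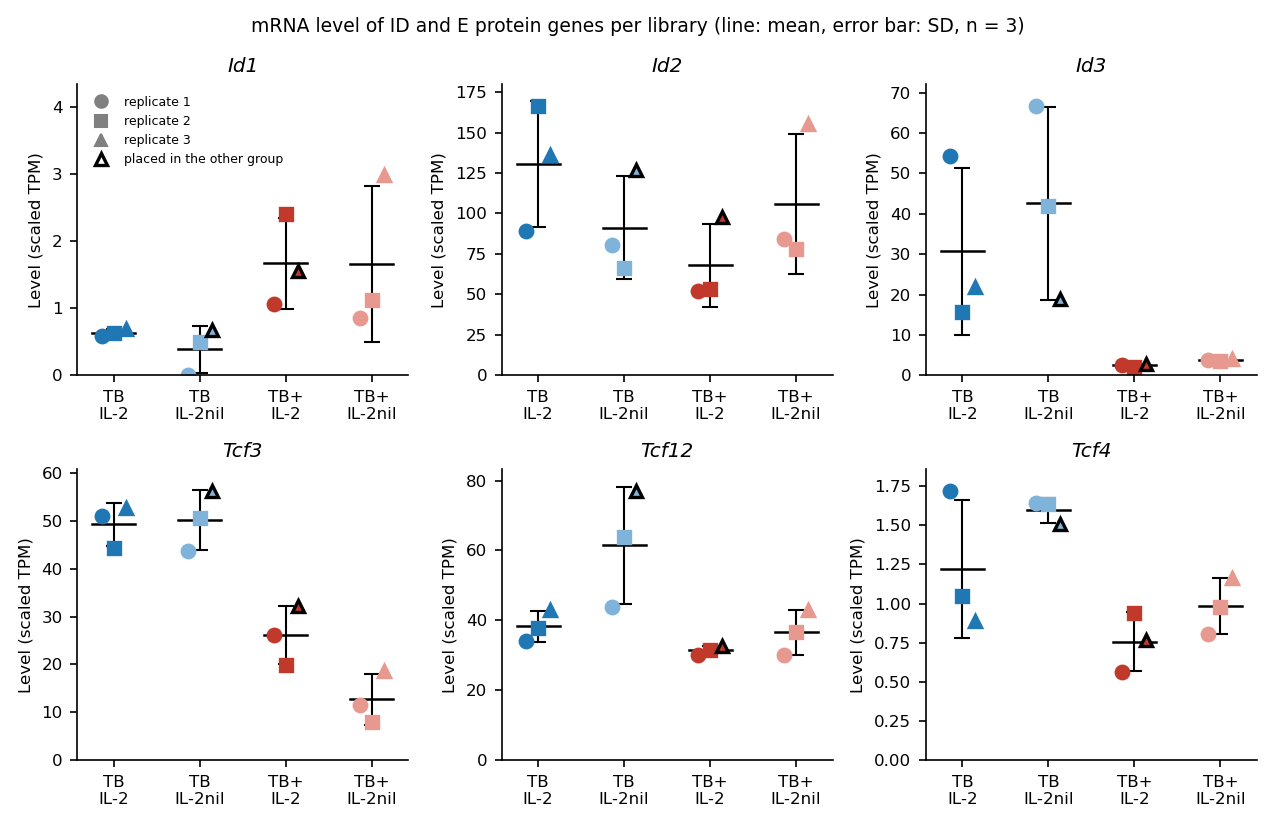
Level of each gene in scaled TPM (vertical axes, each from 0) in the 4 groups. Each point is 1 library, its shape gives the replicate number and a black rim marks the 2 libraries placed in each other's group; horizontal lines are means and error bars are SD (n = 3). As placed, all TB+ libraries lie below all TB libraries for *Id3* and *Tcf3*.

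*Id3* encodes an ID protein whose transcription is known to follow T cell receptor and TGF-beta signals, and it was the member with the largest change. In TB IL-2 it was at 54.3, 15.7 and 21.9 TPM in replicates 1, 2 and 3, and in TB IL-2nil at 66.7, 42.0 and 19.0 TPM. In TB+ IL-2 it was at 2.57, 2.16 and 2.73 TPM, and in TB+ IL-2nil at 3.77, 3.48 and 4.08 TPM. The lowest TB library, at 15.7 TPM, was thus above the highest TB+ library, at 4.08 TPM. As labelled the groups overlapped, with 2.73 to 66.7 TPM in TB IL-2nil and 2.16 to 19.0 TPM in TB+ IL-2. *Id3* fell with PMA/I by 2.99 on the log2 scale in cells with IL-2 (SE 0.45, adjusted P = 0.000638), a 7.96-fold difference of TPM + 1, and fell by 3.02 after IL-2 withdrawal (SE 0.45, adjusted P = 0.000188), or 8.13-fold. The pseudocount makes these folds smaller than those of the levels themselves, whose means went from 30.7 to 2.49 TPM with IL-2 and from 42.6 to 3.78 TPM after withdrawal. Of all genes tested, 0.321% had a stronger fall in the first comparison and 0.940% in the second. In TPM without the pseudocount, the size of the fall differed between replicate numbers, from 7.29-fold to 21.1-fold between libraries of the same replicate number with IL-2 and from 4.66-fold to 17.7-fold after withdrawal, while the TB+ values lay close together. Before PMA/I the difference in *Id3* between cells with and without IL-2 was -0.49 (adjusted P = 0.417), and the groups overlapped. Leaving out 1 library moved this value from -0.99 (without TB IL-2 replicate 1) to -0.082 (without TB IL-2nil replicate 1), as labelled it was 0.32, and it was not called in any of these. After PMA/I it was -0.46 (SE 0.45), lower with IL-2 in all 3 same-numbered pairs and without overlap of the TB+ groups. It was not called (adjusted P = 0.511) with the spread shared by the 4 groups, which is larger in the TB groups for this gene, nor when only the TB+ groups were fitted (adjusted P = 0.0771). With the groups as labelled, the PMA/I differences were -2.19 (adjusted P = 0.378) and -2.22 (adjusted P = 0.161), and without the 2 libraries they were -3.04 (adjusted P = 0.00129) and -3.50 (adjusted P = 0.000233). In bulk RNA, fewer cells of a type and less RNA per cell cannot be told apart, for this gene and for those below.

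*Id2* encodes the ID protein of effector T cells and innate lymphoid cells. It was at 88.9, 166 and 136 TPM in TB IL-2 and at 80.4, 66.1 and 127 TPM in TB IL-2nil. With PMA/I it was at 52.2, 53.6 and 97.8 TPM in TB+ IL-2 and at 84.0, 78.0 and 156 TPM in TB+ IL-2nil. The groups overlapped in all 4 comparisons, and replicate 3 was the highest library in TB IL-2nil and in both TB+ groups. *Id2* was not called in any of them. With IL-2 it was higher than without it before PMA/I in all 3 same-numbered pairs, by 1.07-fold to 2.52-fold in TPM (0.52, SE 0.36, adjusted P = 0.274). In stimulated cells it was lower with IL-2 in all 3 pairs, by 1.46-fold to 1.61-fold (-0.62, SE 0.36, adjusted P = 0.247, and 0.0763 with the replicate number as a block). Without the 2 placed libraries these differences were 0.78 (adjusted P = 0.107) and -0.91 (adjusted P = 0.125). Leaving out 1 library also made them smaller, down to 0.32 (without TB IL-2nil replicate 2) and -0.31 (without TB+ IL-2nil replicate 3). Its difference with PMA/I was -0.95 in cells with IL-2 (SE 0.36, adjusted P = 0.0627) and 0.20 after withdrawal (SE 0.36, adjusted P = 0.657). The first was called when the replicate number entered the fit as a block (adjusted P = 0.0113) and when the 2 placed libraries were left out (-1.24, adjusted P = 0.0232), and in 6 other alternatives (-1.24 to -0.95). Between libraries of the same number, *Id2* was lower with PMA/I in all 3 pairs with IL-2, by 1.39-fold to 3.10-fold, and higher in all 3 pairs without it, by 1.04-fold to 1.22-fold. The test of this difference, the PMA/I-by-IL-2 interaction, gave -1.14 (SE 0.51, adjusted P = 0.209, unadjusted P = 0.0471), and with the block an adjusted P = 0.0595.

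*Id1*, the third ID gene, was close to the limit of detection. It was at 0.583, 0.628 and 0.685 TPM in TB IL-2 and at 0, 0.490 and 0.671 TPM in TB IL-2nil. In TB+ IL-2 it was at 1.05, 2.40 and 1.56 TPM and in TB+ IL-2nil at 0.859, 1.12 and 2.99 TPM. Every TB+ library was therefore above every TB library, although by less than 1 TPM in some cases. As labelled, the groups overlapped in both PMA/I comparisons. TB+ IL-2 was then at 0.671 to 2.40 TPM against 0.583 to 0.685 TPM in TB IL-2. TB+ IL-2nil was at 0.859 to 2.99 TPM against 0 to 1.56 TPM in TB IL-2nil. *Id1* rose with PMA/I after IL-2 withdrawal by 0.88 (SE 0.30, adjusted P = 0.0234), and this call was lost with the groups as labelled (0.68, adjusted P = 0.253), with a pseudocount of 5 (0.29), without upper-quartile scaling, when only the 2 groups compared were fitted, and without either TB IL-2nil replicate 1 (0.65) or TB+ IL-2nil replicate 3 (0.55). In cells with IL-2 the difference was 0.68 (SE 0.30, adjusted P = 0.0995), and it was called with the replicate block (adjusted P = 0.0391). Before scaling, *Id1* passed 1 TPM in only 4 of the 12 libraries, all of them TB+ as placed. The filter thus kept *Id1* through the groups where it was high, which favours a rise with PMA/I. No conclusion is drawn from these calls. The library in which *Id1* is listed at 0, TB IL-2nil replicate 1, was among the deeper ones, with 1.19 times the depth of the median library. This depth was estimated from the most frequent ratio of low FPKM values between libraries. For this library a share of 0.158 of the values compared lay at that ratio.

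Of the E protein genes, *Tcf3*, which encodes E12 and E47, changed most. It was at 50.9, 44.3 and 52.7 TPM in TB IL-2 and at 43.8, 50.7 and 56.3 TPM in TB IL-2nil, so the TB groups overlapped almost fully. It was at 26.1, 19.9 and 32.1 TPM in TB+ IL-2 and at 11.5, 8.01 and 18.5 TPM in TB+ IL-2nil. The 4 groups thus formed 3 levels that did not overlap, with TB highest, TB+ IL-2 in the middle and TB+ IL-2nil lowest. As labelled, TB+ IL-2 at 19.9 to 56.3 TPM overlapped both TB groups, TB IL-2nil was at 32.1 to 50.7 TPM, and TB+ IL-2nil was still below all others. *Tcf3* fell with PMA/I by 0.92 in cells with IL-2 (SE 0.26, adjusted P = 0.0202), a 1.89-fold difference of TPM + 1, and fell by 1.97 after withdrawal (SE 0.26, adjusted P = 8.65e-05), or 3.92-fold. In the stimulated cells it was 2.04-fold higher with IL-2 than without it (1.03, SE 0.26, adjusted P = 0.0189), and 7.89% of the genes tested had a larger difference in that direction. Libraries of the same number differed in TPM in this comparison by 2.27-fold, 2.49-fold and 1.73-fold, each time higher with IL-2. Before PMA/I the difference was -0.02 (SE 0.26, 95% interval -0.60 to 0.56, adjusted P = 0.962).

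For *Tcf3* the PMA/I-by-IL-2 interaction was 1.06 (SE 0.37, 95% interval 0.23 to 1.88) with an adjusted P = 0.126, and with the replicate number as a block the adjusted P was 0.0367. Some of these calls rested on single libraries. The fall in cells with IL-2 was not called without TB IL-2 replicate 1 or 3 or without the library labelled TB+ IL-2 replicate 1 or 2 (-0.93 to -0.74), nor with median scaling (-0.61), without upper-quartile scaling (-0.99) or with no filter on low values (-0.77). The IL-2 difference in stimulated cells was not called when only the TB+ groups were fitted, or without TB+ IL-2nil replicate 1 (1.01) or 2 (0.77) or without the library labelled TB IL-2nil replicate 3 (0.87). With groups as labelled, the difference after withdrawal was -1.71 and was called (adjusted P = 0.0390), while the difference with IL-2 kept was -0.65 (adjusted P = 0.502) and that between the TB+ groups was 1.3 (adjusted P = 0.136). Without the 2 placed libraries the last was 0.88 (adjusted P = 0.0988).

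*Tcf12* encodes HEB, the partner of E2A proteins in T cell precursors. It was at 34.2, 37.7 and 42.9 TPM in TB IL-2 and at 43.7, 63.7 and 77.1 TPM in TB IL-2nil. It was at 30.0, 31.4 and 32.7 TPM in TB+ IL-2 and at 30.1, 36.6 and 42.9 TPM in TB+ IL-2nil. TB IL-2nil was the high group, and its lowest library lay only just above the highest of TB IL-2 and of TB+ IL-2nil. As labelled it was at 32.7 to 63.7 TPM and overlapped all other groups, with TB+ IL-2 at 30.0 to 77.1 TPM. *Tcf12* was lower with IL-2 than without it before PMA/I (-0.64, SE 0.21, adjusted P = 0.0320), and it fell with PMA/I after withdrawal by 0.71 (SE 0.21, adjusted P = 0.0123). With IL-2 kept, its difference with PMA/I was -0.27 (95% interval -0.73 to 0.19, adjusted P = 0.342), and between the TB+ groups it was -0.20 (95% interval -0.66 to 0.26, adjusted P = 0.535). Both calls were lost with groups as labelled (-0.24, adjusted P = 0.850, and -0.31, adjusted P = 0.564) and without the 2 placed libraries (-0.46, adjusted P = 0.141, and -0.54, adjusted P = 0.0688). Leaving out the library labelled TB+ IL-2 replicate 3 alone also ended both (-0.46, adjusted P = 0.115, and -0.54, adjusted P = 0.0528), as did no filter on low values (-0.60 and -0.52) and fitting only the groups compared. The IL-2 call before PMA/I was also lost without TB IL-2 replicate 1 (-0.57) or 2 (-0.63), without TB IL-2nil replicate 2 (-0.60) and without upper-quartile scaling (-0.72). The PMA/I call after withdrawal was also lost without TB+ IL-2nil replicate 1 (-0.58) and with median scaling, which left -0.24 (adjusted P = 0.342). Without upper-quartile scaling this PMA/I difference was -1.25.

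*Tcf4* encodes E2-2, the E protein of plasmacytoid dendritic cells and B cells. On mm9 it lies at chr18:69503800-69847621 on the plus strand. It was at 1.72, 1.05 and 0.889 TPM in TB IL-2 and at 1.65, 1.63 and 1.51 TPM in TB IL-2nil, and at 0.564, 0.938 and 0.767 TPM in TB+ IL-2 and 0.805, 0.977 and 1.16 TPM in TB+ IL-2nil. The 3 TB IL-2nil libraries lay close together and above all TB+ libraries, while TB IL-2 overlapped every other group. As labelled, TB IL-2nil was at 0.767 to 1.65 TPM and overlapped both TB+ groups. *Tcf4* was not called in any comparison, and the smallest adjusted P was that of PMA/I after withdrawal (-0.39, SE 0.17, adjusted P = 0.0590). This difference was called with a pseudocount of 0.1 (-0.66, adjusted P = 0.0429) and without TB IL-2 replicate 1 (-0.39, adjusted P = 0.0364), and it was 0.045 with quantile normalization.

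Markers of other cells moved with some of these values. The 5 B cell markers *Cd79a*, *Cd79b*, *Ms4a1*, *Pax5* and *Ebf1* summed to 23.7 to 30.4 TPM in TB IL-2nil, 5.89 to 12.7 TPM in TB IL-2, 2.20 to 3.28 TPM in TB+ IL-2 and 4.19 to 12.2 TPM in TB+ IL-2nil. As labelled these sums were 2.20 to 30.4 TPM in TB IL-2nil and 2.93 to 23.7 TPM in TB+ IL-2. The most abundant of them was *Cd79a*, at 1.52 to 11.5 TPM, and none of the 5 was listed at 0 in all libraries. This order of groups, with TB IL-2nil highest, is also that of the *Tcf12*, *Tcf4* and *Id3* means among the TB groups, and the part of B cells in these differences was not tested. The study purified the starting cells with CD4 microbeads, a step that selects CD4 T cells over B cells and CD8 T cells. How many other cells remained was not measured here. *Cd8a* and *Cd8b1* summed to 42.8, 5.41 and 8.12 TPM in TB IL-2 and to 30.8, 13.6 and 18.3 TPM in TB IL-2nil, and replicate 1, the highest in both groups, was also highest for *Id3*. In TB+ IL-2 the sums were 30.2, 6.79 and 9.60 TPM, and replicate 1, far the highest, was not the highest for *Id3*. In TB+ IL-2nil they were 12.8, 6.99 and 14.6 TPM, in the same order as *Id3*. As labelled, the third library of TB IL-2nil was at 9.60 TPM and that of TB+ IL-2 at 18.3 TPM. *Cd8b1* was the more abundant of the pair, and their part in the spread of *Id3* was not tested. Of the 6 markers of plasmacytoid dendritic cells, 1 was listed at 0 in all libraries, and the sum was 24.4 to 147 TPM in TB libraries and 241 to 641 TPM in TB+ libraries. *Irf8*, which activated T cells also transcribe, was the most abundant of them in all TB+ libraries and in TB IL-2 replicate 2, at 55.4 TPM or more, while in the other TB libraries it was at 4.74 to 28.4 TPM and *Bst2*, an interferon-induced gene, was higher, at 13.5 to 111 TPM. The 5 myeloid markers summed to at most 4.74 TPM, with *Cd68* the most abundant, and the 5 NK and innate lymphoid markers, of which 1 was listed at 0 throughout, to 1.24 to 6.44 TPM, with *Eomes* the most abundant. The 5 regulatory T cell markers summed to 182 to 510 TPM, with *Tnfrsf18* the most abundant on average, at 108 to 430 TPM. Their sum carries no reading of how many regulatory T cells were present. Of the 4 markers of stroma and endothelium, 1 was listed at 0 throughout and *Pecam1* made up most of the sum of 13.4 to 114 TPM, which was highest in TB IL-2nil, at 73.8 to 114 TPM (19.6 to 114 TPM as labelled).

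Counted over the comparisons, PMA/I after IL-2 withdrawal called the most members. In that comparison 4 of 6 were called, with *Id1* higher and *Id3*, *Tcf3* and *Tcf12* lower, against 61.2% of all genes tested called in either direction, 20.1% higher and 41.1% lower. *Id1*, here and in the counts with the replicate block below, passed the filter only in TB+ libraries as placed. Its PMA/I calls were therefore favoured by the filter. With IL-2 kept, 2 of 6 were called, both lower (*Id3* and *Tcf3*), against 35.1% of all genes, 11.8% higher and 23.3% lower. IL-2 before PMA/I called 1 of 6 (*Tcf12*, lower with IL-2) against 39.6% of all genes, 17.3% higher and 22.3% lower. IL-2 in stimulated cells called 1 of 6 (*Tcf3*, higher with IL-2) against 21.3% of all genes, 12.9% higher and 8.40% lower. For the interaction, limma called 0 of 6, with 2 (*Id2* and *Tcf3*) at an unadjusted P under 0.05, against 4.23% of all genes called. These shares of called members are near or under those of all genes.

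With the replicate block, 4 of 6 were called for PMA/I with IL-2 kept (*Id1* higher, *Id2*, *Id3* and *Tcf3* lower) against 46.3% of all genes, and 1 of 6 for the interaction (*Tcf3*) against 11.9%. With the groups as labelled, the only member called in any comparison was *Tcf3* (PMA/I after withdrawal, lower), and the shares of all genes called were 5.38% in that comparison, 0.498% for PMA/I with IL-2 kept, 0.121% for IL-2 before PMA/I, 0.217% for IL-2 in stimulated cells and 0% for the interaction. Without the 2 placed libraries, 3 of 6 members were called for PMA/I with IL-2 kept against 30.9% of all genes, 3 after withdrawal against 53.7%, and 0 in the IL-2 comparisons against 32.3% before and 9.71% after PMA/I. The fall of *Id3* in both PMA/I comparisons and of *Tcf3* after withdrawal also passed the limit of 3-fold that the study used, which 3.10% of genes passed downwards with IL-2 and 10.7% after withdrawal. The comparisons share libraries, so that their values for a gene are not independent of each other.

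**Figure D2:**
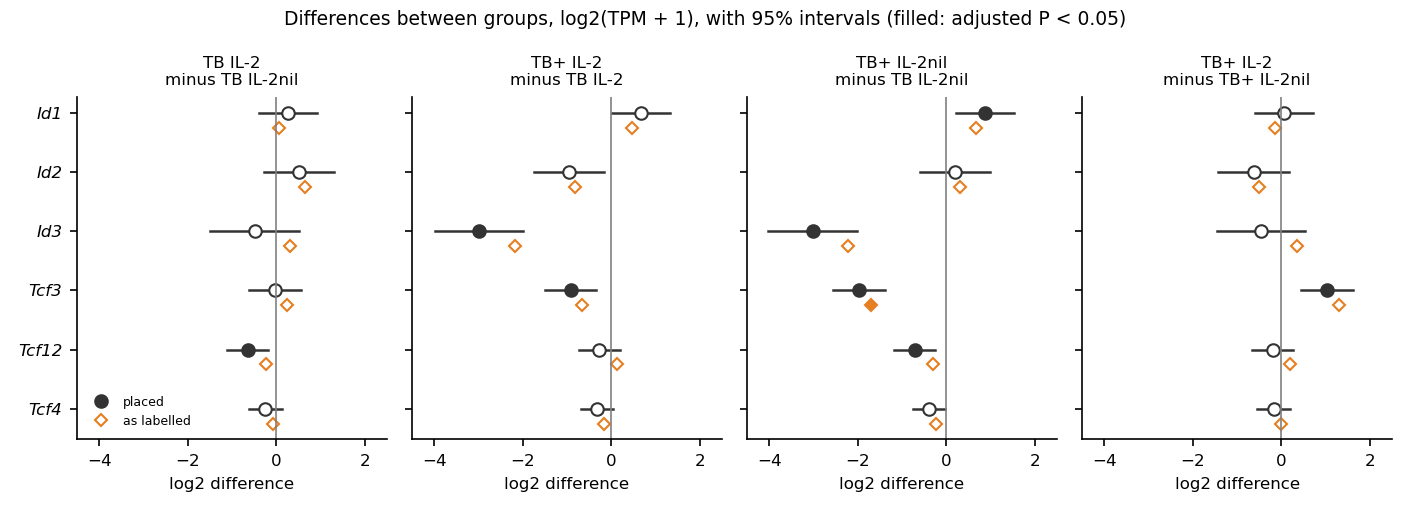
Differences between groups in log2(TPM + 1) (horizontal axes) for each gene in 4 comparisons. Circles with 95% intervals are the groups as placed, diamonds are the groups as labelled, and filled symbols have an adjusted P under 0.05. *Id3* lies near -3 in both PMA/I comparisons, and *Tcf3* is the gene called in 3 of the 4 panels.

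Set side by side on the TPM scale, which is per length, the makeup of both families shifted with PMA/I. *Id2* made up 61.8, 91.0 and 85.8% of the summed ID level in TB IL-2 and 54.7, 60.8 and 86.6% in TB IL-2nil. It made up 92.2 to 95.8% in the 6 TB+ libraries, and *Id3* fell there to 2.51 to 4.60% from 8.61 to 45.3% in the TB libraries. As labelled the *Id3* share was 2.68 to 45.3% in TB IL-2nil and 3.71 to 12.9% in TB+ IL-2, and the *Id2* share 54.7 to 95.8% and 86.6 to 93.5%. Among the E protein genes, *Tcf3* and *Tcf12* shared the sum. The ratio of *Tcf3* to *Tcf12* was 1.17 to 1.49 in TB IL-2, 0.731 to 1.0 in TB IL-2nil and 0.636 to 0.980 in TB+ IL-2, and it was lowest in TB+ IL-2nil, at 0.219 to 0.432, without overlap with any other group, which also held as labelled. *Tcf4* was a minor part throughout.

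The summed E protein level was 83.0 to 96.5 TPM in TB IL-2 and 89.1 to 135 TPM in TB IL-2nil. It was 52.2 to 65.6 TPM in TB+ IL-2 and 42.4 to 62.6 TPM in TB+ IL-2nil, so that every TB+ library was below every TB library. As labelled this did not hold, with 65.6 to 116 TPM in TB IL-2nil and 52.2 to 135 TPM in TB+ IL-2. The summed ID level was 144 to 183 TPM in TB IL-2, 109 to 147 TPM in TB IL-2nil, 55.8 to 102 TPM in TB+ IL-2 and 82.6 to 163 TPM in TB+ IL-2nil. As labelled it was 102 to 147 TPM in TB IL-2nil and 55.8 to 147 TPM in TB+ IL-2. The ratio of the ID sum to the E sum was 1.66, 2.20 and 1.65 in TB IL-2 and 1.65, 0.936 and 1.09 in TB IL-2nil. It was 0.984, 1.11 and 1.56 in TB+ IL-2 and 2.09, 1.81 and 2.60 in TB+ IL-2nil. After withdrawal the ratio was thus higher with PMA/I in all 3 libraries, and the ranges of the 2 groups did not overlap, while with IL-2 kept it was lower with PMA/I in all 3, again without overlap. As a score over the chosen genes the ratio was not tested, and it says nothing of protein levels. With the groups as labelled it was 0.936 to 1.65 in TB IL-2nil and 0.984 to 1.11 in TB+ IL-2, and both gaps between TB and TB+ groups remained.

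**Figure D3:**
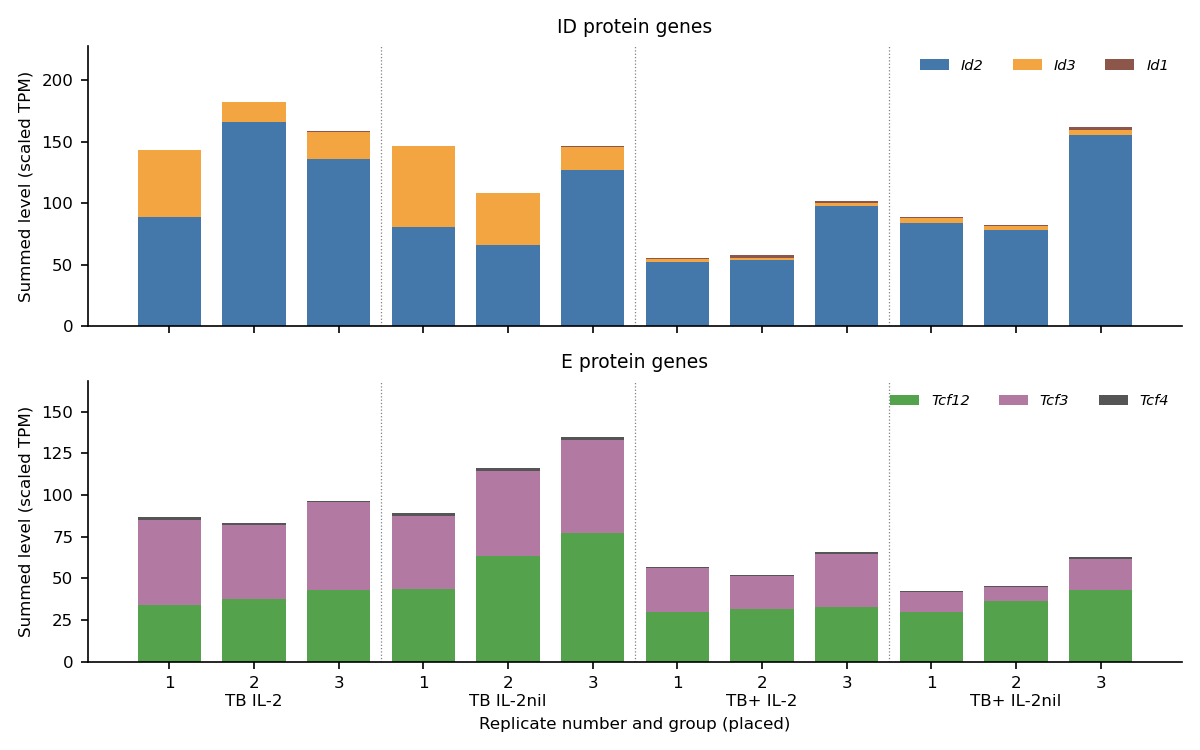
Stacked levels in scaled TPM (vertical axes) of the ID protein genes (top) and of the E protein genes (bottom) in each of the 12 libraries, by group as placed and replicate number. The *Id3* part is 8.61 to 45.3% of the ID sum in TB libraries and at most 4.60% in TB+ libraries, and the ratio of *Tcf3* to *Tcf12* is lowest in TB+ IL-2nil, at 0.219 to 0.432.

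Correlations between the members over the 12 libraries in log2(TPM + 1) describe the same pattern and were not tested, since the libraries of a group share their treatment. *Id3* had r = 0.75 with *Tcf3*, 0.83 with *Tcf4* and -0.80 with *Id1*. *Id2* had r from 0.02 to 0.32 with the others. Among the 7232 genes with a mean of at least 10 TPM, those most like *Id3* were *Rassf3* (r = 0.976), *Alkbh4* (0.975) and *Arhgap27* (0.973). Those most like *Tcf3* were *Ttc7* (0.983), *Ankrd13a* (0.982) and *Slc25a12* (0.982), and those most like *Tcf12* were *Ndrg3* (0.952), *Gramd3* (0.951) and *Ubac2* (0.950). For the other members the closest genes were *Snord100* for *Id2* (0.876), then *Sp2* (0.857) and *Snhg9* (0.850), *Snhg12* for *Id1* (0.866), then *Mt2* (0.857) and *Tm6sf1* (0.840), and *Snapc3* for *Tcf4* (0.937), then *Dync1li2* (0.932) and *Kif3b* (0.918). *Snord100* and *Snhg9* are non-coding RNAs, and short non-coding RNAs took 16.6 to 53.2% of the summed FPKM of a library. Their part in these likenesses was not tested.

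Genes that act around the E proteins were read in lists chosen with earlier results of these data known. Counts on these lists that differ from the shares of all genes are therefore no independent support. The lists were read against the shares of all genes called that are given above. Of these, only the 46.3% for PMA/I with IL-2 kept and the 11.9% for the interaction are of the fit with the replicate block. Of 8 cofactors and bridging proteins of E protein complexes, 6 were tested. After IL-2 withdrawal 5 of these fell with PMA/I and 0 rose, and their median difference was -1.09, where all tested genes had -0.38 and 41.1% of them were called lower. With IL-2 kept 2 fell, against 23.3% of all genes, and the medians were -0.48 and -0.22. *Ep300*, a histone acetyltransferase that E proteins recruit, went from 68.9 ± 2.48 TPM in TB IL-2nil to 21.0 ± 4.65 TPM in TB+ IL-2nil (SD, n = 3; -1.69, SE 0.16, adjusted P = 1.09e-05). *Ldb1*, which bridges E protein complexes with LMO proteins, went from 220 ± 14.0 TPM to 82.3 ± 32.5 TPM (SD, n = 3; -1.49, SE 0.26, adjusted P = 0.000548). Both also fell with IL-2 kept, by 1.15 for *Ep300* and 1.17 for *Ldb1*. Before PMA/I, 4 of the 6 were lower with IL-2 than without it, against 22.3% of all genes (median -0.56 against -0.13). The largest were *Ldb1*, *Crebbp* and *Cbfa2t2*. In stimulated cells 1 was lower with IL-2 (*Crebbp*), against 8.40% of all genes (median 0.00 against -0.04). With the replicate block, *Kat2b* also fell with IL-2 kept (-0.49, adjusted P = 0.0420 in place of 0.196), which made 3. Without the 2 placed libraries, 2 were lower with IL-2 before PMA/I and 0 in stimulated cells, and 4 and 2 fell with PMA/I. With the groups as labelled, 0 of the 6 were called in each of these comparisons.

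Of 6 genes for the turnover of ID and E proteins, all tested, 5 were higher with IL-2 before PMA/I and 0 lower (median 0.77 against -0.13 for all tested genes, of which 17.3% were called higher and 22.3% lower). *Skp2*, a ubiquitin ligase subunit that also acts in the cell cycle, was at 11.1 ± 3.20 TPM in TB IL-2 and 2.03 ± 0.827 TPM in TB IL-2nil (SD, n = 3; 1.99, SE 0.25, adjusted P = 0.000266). *Usp1*, the deubiquitinase that stabilizes ID proteins, was at 88.3 ± 12.4 and 33.8 ± 3.32 TPM (SD, n = 3; 1.35, SE 0.21, adjusted P = 0.000868). In stimulated cells 3 of the 6 were higher with IL-2 (*Skp2*, *Fzr1* and *Cops5*; median 0.55 against -0.04), where 12.9% of all genes were called higher. With PMA/I, 3 fell with IL-2 kept (*Skp2*, *Fzr1* and *Stub1*), against 23.3% of all genes (median -0.55 against -0.22). After withdrawal 2 fell (*Fzr1* and *Skp2*) and 1 rose (*Usp1*), against 41.1% and 20.1% of all genes (median -0.18 against -0.38). With the replicate block, *Wdr48* rose with PMA/I in cells with IL-2 (0.50, adjusted P = 0.0138 in place of 0.0710). Leaving out the 2 placed libraries left 4 higher with IL-2 before PMA/I and 2 in stimulated cells. As labelled, the only call on this list was 1 gene lower with PMA/I after withdrawal.

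Among 19 genes of the TGF-beta and BMP pathways and of the EGR family, which are known to feed into *Id* transcription, 16 were tested. PMA/I lowered 0 of them with IL-2 and 1 without it, while 23.3% and 41.1% of all genes were called lower. It raised 5 and 6, while 11.8% and 20.1% of all genes were called higher (medians 0.26 against -0.22 for all tested genes, and 0.31 against -0.38). The largest were the EGR genes, immediate early factors that T cell receptor signals induce. *Egr2* went from 1.05 ± 0.357 TPM in TB IL-2 to 554 ± 100.1 TPM in TB+ IL-2 (SD, n = 3; 8.08, SE 0.21, adjusted P = 3.30e-09). After withdrawal it went from 1.16 ± 0.157 TPM to 981 ± 237 TPM (SD, n = 3; 8.81, SE 0.21, adjusted P = 1.67e-09). *Egr3* rose by 8.84 and 8.79 and *Egr1* by 5.20 and 6.31 in the same comparisons. IL-2 before PMA/I went with lower levels of 6 genes of this list and a higher level of 1, *Tgfb1* (median -0.16 against -0.13). Of all genes, 22.3% were called lower and 17.3% higher. *Tgfbr2*, a receptor chain for TGF-beta, was at 65.6 ± 2.40 TPM in TB IL-2 and 170 ± 17.6 TPM in TB IL-2nil (SD, n = 3; -1.35, SE 0.22, adjusted P = 0.000914), and *Smad7*, the inhibitory SMAD of this pathway, at 32.4 ± 18.8 and 116 ± 38.7 TPM (SD, n = 3; -1.90, SE 0.45, adjusted P = 0.00728). In stimulated cells 8 of the 16 were lower with IL-2 and 0 higher (median -0.71 against -0.04, and 8.40% of all genes called lower), with *Bmpr2* (-1.57), *Smad7* (-1.41) and *Smad5* (-1.14) the largest. With the replicate block, *Acvr1* (0.56, adjusted P = 0.0158) and *Acvr2a* (-0.75, adjusted P = 0.0108) were also called for IL-2 before PMA/I, *Acvr2a* and *Smad2* for IL-2 in stimulated cells (10 lower), *Bmpr1a* fell with PMA/I in cells with IL-2, *Bmpr2* rose after withdrawal, and the interaction of *Tgfb1* was called (-0.97, adjusted P = 0.0229), the only such call on the list. With the block 4186 of 12442 genes were called in either direction for IL-2 in stimulated cells, in place of 2644. The 8.40% above therefore does not apply to the count of 10. With the 2 placed libraries left out, 2 in place of 8 were lower with IL-2 in stimulated cells. As labelled, 0 genes of this list were called.

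Of 19 genes known as targets of E proteins in lymphocytes, 15 were tested, and they moved in both directions. With PMA/I, 4 rose and 2 fell in cells with IL-2 (median 0.28 against -0.22 over all genes), and 5 rose and 4 fell after withdrawal (median -0.05 against -0.38). These 6 and 9 calls among 15 genes stand against 35.1% and 61.2% of all genes called, so that the targets, with both directions pooled, were called about as often as other genes. By direction, 11.8% of all genes rose and 23.3% fell with IL-2, and 20.1% rose and 41.1% fell after withdrawal. Whether the targets differ from these in direction was not tested. *Gfi1*, a transcriptional repressor of lymphocytes, went from 8.25 ± 4.11 to 100.1 ± 20.0 TPM with IL-2 (SD, n = 3; 3.52, SE 0.38, adjusted P = 7.25e-05) and from 17.9 ± 7.42 to 351 ± 110 TPM without it (SD, n = 3; 4.27, SE 0.38, adjusted P = 6.67e-06). *Cdkn1a*, a cell cycle inhibitor, rose by 1.99 and 2.91. The third largest rise was that of *Notch1* with IL-2 (1.78) and of *Socs3*, an inhibitor of cytokine signalling, without it (2.84). *Lef1*, a factor of naive T cells, and *Ets1*, a factor of the ETS family, fell in both. *Lef1* was at -1.0 and -1.81 and *Ets1* at -0.56 and -1.75. IL-2 before PMA/I went with lower levels of 5 of the 15 and higher levels of 2 (median -0.63 against -0.13). Of all genes, 22.3% were called lower and 17.3% higher. The largest of the 5 were *Il7r* (-3.54), *Bcl6* (-2.24) and *Cd4* (-1.30), while *Cdkn1a* and *Socs3* were higher. In stimulated cells 5 were lower with IL-2 and 0 higher (median -0.72 against -0.04), against 8.40% and 12.9% of all genes. The largest were *Gfi1* (-1.78), *Il7r* (-1.54) and *Socs3* (-1.43). The PMA/I-by-IL-2 interaction was called for *Socs3* (-2.45, adjusted P = 0.0122) and *Ets1* (1.19, adjusted P = 0.0145). With the replicate block it was also called for *Il7r* (2.00, adjusted P = 0.0189), *Sox4* was lower with IL-2 before PMA/I (-0.61, adjusted P = 0.0390) and in stimulated cells (-0.72, adjusted P = 0.0290), and *Gfi1* was lower before PMA/I (-1.03, adjusted P = 0.0444). When the 2 placed libraries were left out, 2 in place of 5 were lower with IL-2 in stimulated cells, and 0 interactions were called. *Cd4* is also among the T cell markers above. As labelled, the only calls on this list were 2 genes higher with PMA/I after withdrawal.

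**Figure D4:**
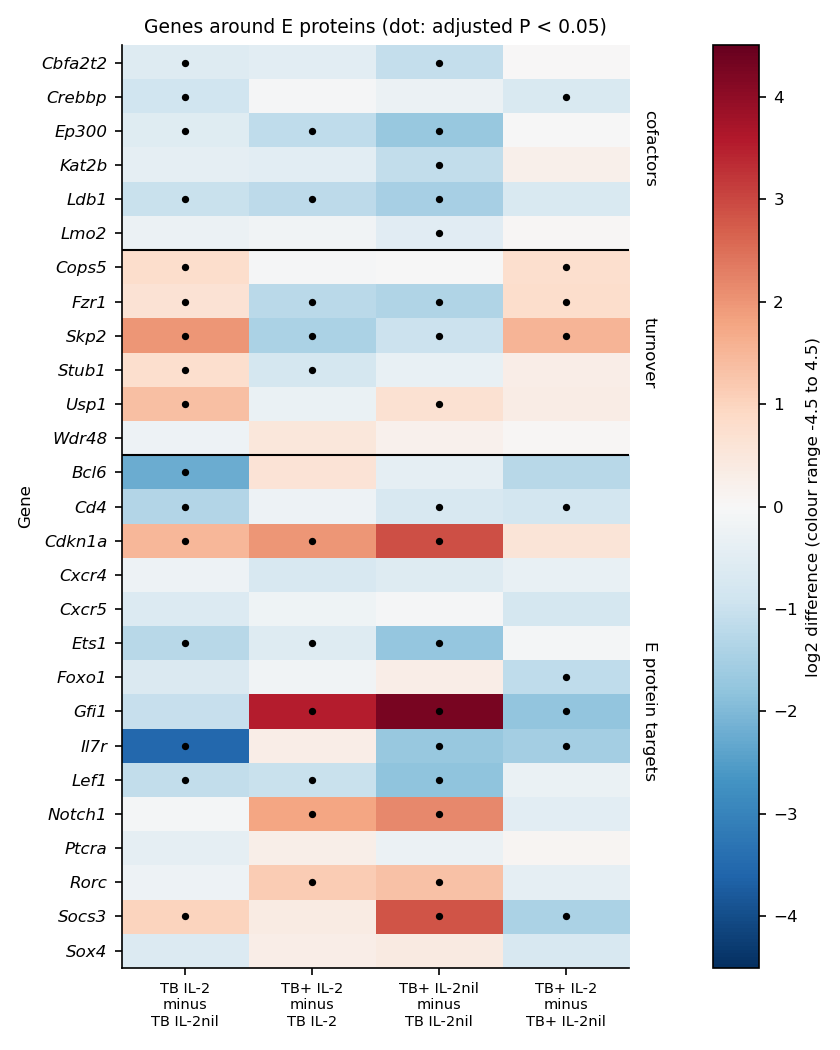
Differences in log2(TPM + 1) (colour, from -4.5 to 4.5) of the tested cofactors, turnover genes and target genes of E proteins in 4 comparisons (columns), with groups as placed. A dot marks an adjusted P under 0.05. Of the cofactors, 5 of 6 are called lower with PMA/I after withdrawal, against 41.1% of all genes. Of the turnover genes, 5 of 6 are called higher with IL-2 before PMA/I, against 17.3% of all genes. The lists were chosen with earlier results of these data known, and these contrasts were not tested.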

How the data were processed

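The authors' processing notes name Trimmomatic 0.32, HISAT2 2.1.0, StringTie 1.3.3 and mm9. The deposited values are FPKM for 24439 gene names in each of 12 libraries, with no normalization between libraries, and they sum to 193815 to 420487 per library. The study's methods name TPM, so each library was rescaled here to sum to 1000000. A gene needed more than 1 TPM in any library to be tested, which left 12442. Libraries were then brought to the same 75th percentile. The tests used limma 3.58.1 under R 4.3.3 on log2(TPM + 1), which understates changes of low genes, in a model of 4 groups with 3 libraries each and no block. The script was tested on simulated data. Python 3.11.15 was used for the rest.

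No read counts were used, so no counting interval is given and depth is known only relative to the median library, from 0.403 (TB IL-2nil replicate 2) to 1.24 (TB+ IL-2nil replicate 1), estimated from the most frequent ratio of low FPKM values between libraries. To match the columns of the study's list, the libraries were quantile-normalized, in the input form that matched best. The main fit kept the upper-quartile scaling that the study's methods name, with quantile normalization as an alternative. The 2 placed libraries matched the column of the other label within 1% for 98.4% and 99.9% of 1391 genes. The next closest library matched these columns for at most 2.01%. The other 10 libraries matched the columns of their own labels. Replicate numbers come from the labels, which do not say what they share. As placed, all 18 pairs of same-numbered libraries deviated together from their group means (r from 0.10 to 0.53), so the fit with the replicate number as a block is given where it changes a call.

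All 6 members are named, then up to 3 genes per list, direction and comparison with the largest called change, and the 3 genes most like each member. The 6 lists also held 21 other bHLH partners and 21 other E-box factors. The members and lists were chosen with earlier results of these data known. Alternatives covered placement, block, pseudocount, filter, scaling, short non-coding RNAs, unit, variance model, samples fitted and leaving out each library. Fold changes and P-values of the authors' own comparisons were not used; of their list of differentially expressed genes only the expression columns were read, to place the 2 libraries. One gene of the marker lists is not reported here and was left out of its list's sum.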

Additional observations from a re-analysis of the deposited data

How the results depend on the processing

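The differences of the 6 genes were recomputed under 28 settings. Of 814 such values, 708 kept their direction and their side of the threshold, 45 lost a call, 17 gained one and 44 changed sign, and the cause of these changes was not tested. None of the differences that changed sign was called as reported. Those values are below, except that changes of sign on leaving out 1 library are given as a range for each difference. With the groups as labelled they were *Id3* at 0.32 and *Tcf3* at 0.24 for IL-2 before PMA/I, *Tcf12* at 0.13 for PMA/I with IL-2 kept, and *Id1* at -0.14, *Id3* at 0.35 and *Tcf12* at 0.20 for IL-2 in stimulated cells, with or without the replicate block. The members called were then 0 for IL-2 before PMA/I, 0 for PMA/I with IL-2 kept, 1 for PMA/I after withdrawal and 0 for IL-2 in stimulated cells, and the genes called were 15, 62, 669 and 27 (47, 76, 518 and 77 with the block), in place of 4929, 4372, 7614 and 2644, and 0 in place of 526 for the interaction. With both placed libraries left out, *Tcf3* was at 0.057 for IL-2 before PMA/I, 0 members were called in either IL-2 comparison, and 1200 genes were called in stimulated cells and 4 for the interaction.

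Scaling moved called differences too. With the median as the scale, *Tcf12* for PMA/I after withdrawal went from -0.71 to -0.24 and *Tcf3* for PMA/I with IL-2 kept from -0.92 to -0.61, and neither was called. Without upper-quartile scaling the same *Tcf12* difference was larger, at -1.25. Without upper-quartile scaling *Id2* was at -0.35 for PMA/I after withdrawal and *Tcf12* at 0.18 for IL-2 in stimulated cells, 0 members were called for IL-2 before PMA/I and 1 for PMA/I with IL-2 kept, and the genes called were 2650 and 2434 in these comparisons, 1486 for IL-2 in stimulated cells and 1 for the interaction. The median of all genes was then -0.78 in place of -0.38 for PMA/I after withdrawal and 0.23 in place of -0.04 for IL-2 in stimulated cells. With the median scale, *Tcf3* was at 0.027 for IL-2 before PMA/I, *Tcf12* at 0.036 for PMA/I with IL-2 kept, and the interaction of *Id3* at -0.12 and of *Tcf4* at -0.040. With quantile normalization, *Id2* was at -0.14 and *Tcf4* at 0.045 for PMA/I after withdrawal, the interaction of *Id3* was -0.091 and of *Tcf4* -0.16, and 4 members were called for PMA/I with IL-2 kept. With no filter on low values *Tcf3* was at 0.019 for IL-2 before PMA/I, the interaction of *Id3* was -0.024, and 0 and 1 members were called for IL-2 before PMA/I and for PMA/I with IL-2 kept. The interaction of *Id3* was -0.087 with a pseudocount of 0.1 and -0.019 with short non-coding RNAs removed, and the genes called for the interaction were 241 with a pseudocount of 0.1 and 842 with 5. When only the groups compared were fitted, 0 members were called in either IL-2 comparison and 2 for PMA/I after withdrawal, and 1503 genes in stimulated cells.

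With the replicate number as a block, 4 members were called for PMA/I with IL-2 kept and 1 for the interaction, this changed no other call of a member, and 4186 genes were called for IL-2 in stimulated cells and 1478 for the interaction. Leaving out each library in turn gave 0 to 1 members called for IL-2 before PMA/I, 1 to 4 for PMA/I with IL-2 kept, 3 to 5 for PMA/I after withdrawal, 0 to 1 for IL-2 in stimulated cells and 0 to 1 for the interaction. *Tcf3* ranged from -0.12 to 0.058 for IL-2 before PMA/I, *Id2* from -0.12 to 0.46 for PMA/I after withdrawal and *Id1* from -0.15 to 0.40 for IL-2 in stimulated cells, and the interactions from -0.43 to 0.13 for *Id1*, from -0.37 to 0.53 for *Id3* and from -0.039 to 0.22 for *Tcf4*. Genes called for the interaction ranged from 84 (without TB IL-2nil replicate 2) to 1302 (without TB+ IL-2nil replicate 3), and for IL-2 in stimulated cells from 1427 (without the library labelled TB IL-2nil replicate 3) to 2568. Depth is known only as a ratio between libraries, so the precision of the low genes *Id1* and *Tcf4* could not be computed.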

Other observations

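Other basic helix-loop-helix genes can pair with E proteins or compete for E-boxes. Of 21 bHLH partners and opponents of E proteins, 4 reached the filter, and all of these were low. *Bhlha15* was at 3.85 ± 0.824 TPM in TB IL-2nil, against 1.31 ± 0.200 TPM in TB IL-2, 0.322 ± 0.132 TPM in TB+ IL-2 and 0.276 ± 0.0553 TPM in TB+ IL-2nil (SD, n = 3), and it fell with PMA/I by 0.80 and 1.91 (adjusted P = 0.00305 and 4.64e-06, limma). *Lyl1* was at 1.12 ± 0.235 TPM in TB IL-2nil and at 0.255 ± 0.0539 TPM in TB IL-2 (SD, n = 3; -0.75, SE 0.15, adjusted P = 0.00297). As placed, *Lyl1* was at most 0.297 TPM in TB IL-2, 0.324 TPM in TB+ IL-2 and 0.0945 TPM in TB+ IL-2nil. It was thus tested only through TB IL-2nil, where it was high. The PMA/I-by-IL-2 interaction was called for *Bhlha15* (1.11, adjusted P = 0.0277) and *Lyl1* (0.88, adjusted P = 0.0438), both of which had levels near 0 in stimulated cells. Both genes passed the filter through TB libraries, where they were high, which favours these calls and the falls above. No conclusion is drawn from them. On this list 0 interactions were called without the 2 placed libraries. *Twist1* was listed at 0 in all TB libraries as placed and was at 0.388 to 1.81 TPM in TB+ IL-2 and 0.699 to 2.22 TPM in TB+ IL-2nil. *Id4* was listed at 0 in every TB IL-2 and TB IL-2nil library and was not tested.

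Of 21 other factors of T cells that bind E-boxes, all tested, 6 rose and 12 fell with PMA/I after withdrawal (median -0.75 against -0.38 over all genes, of which 20.1% were called higher and 41.1% lower), and 3 rose and 8 fell with IL-2 kept (median -0.36 against -0.22, with 11.8% and 23.3% of all genes called). *Myc* was at 130 ± 78.1 TPM in TB IL-2, 19.5 ± 8.45 TPM in TB IL-2nil, 676 ± 93.0 TPM in TB+ IL-2 and 1603 ± 120 TPM in TB+ IL-2nil (SD, n = 3). Its interaction was -3.73 (SE 0.68, adjusted P = 0.0209), and it was the lower of 2 interaction calls on the list. The other was *Usf1* (1.52, SE 0.30, adjusted P = 0.0265), which fell from 47.2 ± 5.99 to 4.69 ± 0.598 TPM after withdrawal and from 25.7 ± 5.89 to 8.02 ± 1.93 TPM with IL-2 kept (SD, n = 3). IL-2 before PMA/I went with higher levels of 3 of the 21 (*Myc*, *Mxd3* and *Mycn*) and lower levels of 4 (median -0.15 against -0.13). Of all genes, 17.3% were called higher and 22.3% lower. In stimulated cells 2 were higher and 3 lower with IL-2 (median -0.10 against -0.04), against 12.9% and 8.40% of all genes. With the replicate number as a block, 5 were higher and 5 lower with IL-2 before PMA/I, with *Bhlhe40* (1.31, adjusted P = 0.00334), *Ahr* and *Usf2* added, and 4 and 4 in stimulated cells, with *Mxd3*, *Usf1* and *Arntl* added. The block also added *Bhlhe40* and *Usf2* to the PMA/I calls with IL-2 kept, *Max* to those after withdrawal, and *Bhlhe40*, *Mxd3* and *Ahr* to the interaction. With the block 46.3% of all genes were called for PMA/I with IL-2 kept and 11.9% for the interaction. For IL-2 in stimulated cells 4186 of 12442 genes were called. No such share is given for IL-2 before PMA/I or PMA/I after withdrawal, so these counts carry no reading about the list. Without the 2 placed libraries 0 interactions were called, and in stimulated cells 0 genes were higher and 2 lower with IL-2. As labelled, 1 gene of both lists together was called, lower with PMA/I in cells with IL-2.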
